A study of Mus musculus with 9 samples.

Results

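The 9 genes described here belong to the periportal pathway that turns ammonia into urea: the urea cycle enzymes Cps1, Otc, Ass1 and Asl, the enzyme Nags that makes the activator of Cps1, the mitochondrial carriers Slc25a15 and Slc25a13, and the ammonia-releasing enzymes Gls2 and Hal. They were chosen by symbol, and all 9 were found among the 21873 genes of the liver mRNA table. Liver RNA came from 9 male C57BL/6 mice aged 8 weeks at the start, 3 in each of 3 groups. The TAA group received thioacetamide, a compound toxic to hepatocytes, intraperitoneally at 200 mg/kg every 3 days for 8 weeks, and the control group received normal saline. Both were sampled 72 h after the last dose. The recovery group had the same 8 weeks of thioacetamide and then 8 weeks without it, so these mice were older at sampling and no control group of their age was analysed. Values are FPKM, fragments per kilobase of gene per M of mapped fragments, 1 library per mouse, divided by a scaling factor for each library. From the spacing of the lowest values, each library was estimated to hold 26.7 to 40.8 M fragments, and the lowest scaled FPKM of any of the 9 genes in any mouse was 17.2.

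Ammonia released from amino acids is toxic, and the liver is the organ that converts most of it to urea. In mitochondria, carbamoyl phosphate made from ammonia and bicarbonate is joined to ornithine, and the resulting citrulline takes up aspartate nitrogen in the cytosol, from which arginine and then urea are formed while ornithine returns to the mitochondria. Hepatocytes near the portal vein hold most of this capacity together with the liver form of glutaminase, while hepatocytes around the central vein capture remaining ammonia as glutamine. RNA of whole liver pieces does not show position, so the word periportal rests here on where these genes are known to be expressed.

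In control livers the 9 genes ranged from among the most abundant transcripts of the table to moderate ones. By mean scaled FPKM over the control mice, Cps1 ranked 46 among the 21873 genes, Ass1 47 and Asl 107. The order then ran Otc at 360, Slc25a13 at 363, Slc25a15 at 393, Gls2 at 503, Hal at 609 and Nags at 1560. In the TAA group Ass1 ranked 29 and Cps1 32, while Asl ranked 359 and Hal 1699. In the recovery group the ranks were 41 for Ass1, 43 for Cps1, 108 for Asl and 436 for Hal. Each rank compares genes within a group.

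After 8 weeks of thioacetamide all 9 genes had lower scaled FPKM than in controls, with every TAA library below every control library for each of them; over all 14094 genes tested, 31.0% had that arrangement. 5 of the 9 fell by the test used throughout, an adjusted p under 0.05 with a fold change of at least 2: Asl, Hal, Otc, Slc25a13 and Gls2. Of all genes tested 8.02% fell by that test and 17.0% rose. The other 4, Cps1, Ass1, Nags and Slc25a15, had an adjusted p under 0.05 with a fold change under 2, so that all 9 were lower at an adjusted p under 0.05, against 26.3% of all genes. The median log2 fold change was -1.37 over the 9 genes and 0.02 over all genes. In whole liver, fewer cells of a type and less RNA per cell cannot be told apart.

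How far the fall extended depended on the scaling between libraries. The median-of-ratios factor ranged over 0.827 to 0.878 for control livers, 1.29 to 1.38 for TAA livers and 0.893 to 0.907 for recovery livers, which set TAA against control 0.64 lower on the log2 scale than in the FPKM as deposited. Without it TAA and control libraries overlapped for Ass1, Nags and Slc25a15. There 3 of the 9 fell by the test, Asl, Hal and Otc, and 5 were lower at an adjusted p under 0.05, with a median of -0.73. With quantile normalization the same 3 fell and the median was -0.75, but Cps1 at 0.46 and Ass1 at 0.63 had the opposite sign, with adjusted p of 0.0196 and 0.00255. Of all genes called, 67.9% were higher in the TAA group with the factors (2389 higher, 1131 lower), 91.2% without them (4382 and 421) and 55.7% with quantile normalization (1591 and 1266). Asl, Hal and Otc are therefore the genes whose call held under these 3 scalings, while the direction of Cps1 and Ass1 did not hold.

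**Figure D1:**
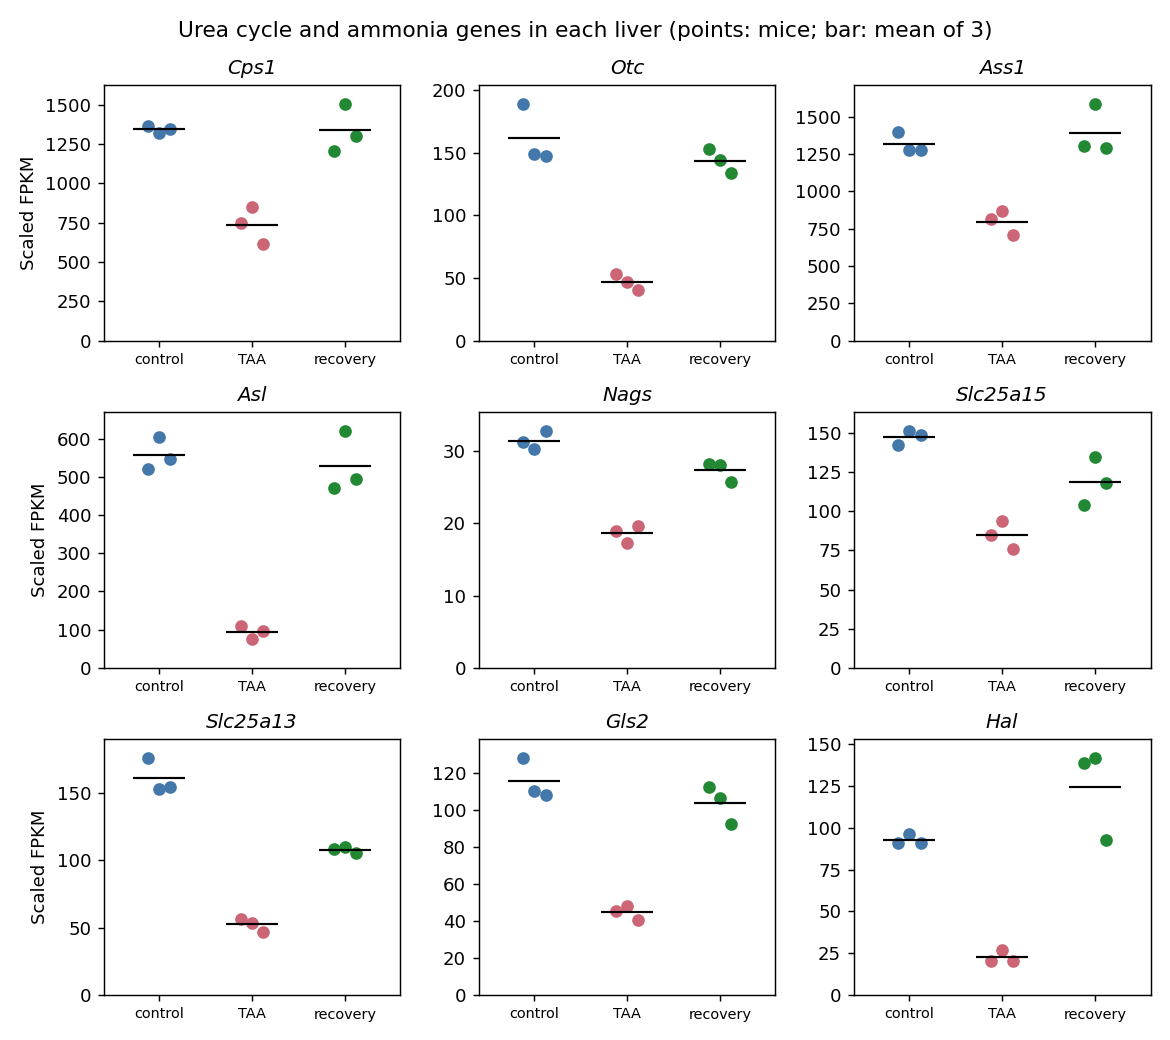
Scaled FPKM of the 9 genes, each point a mouse and each bar the mean of the 3 mice in the control, TAA and recovery groups. All TAA points lie below all control and recovery points with this scaling; under quantile normalization the Cps1 and Ass1 log2 fold changes against control were 0.46 and 0.63.

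Since the 9 genes moved together with this scaling, their promoters were searched for 6 short motifs. RefSeq promoter windows on GRCm38.p6, 250 bases before to 50 after the start, were held for 6 of the 9: Otc, Ass1, Nags, Slc25a15 (with 2 windows), Slc25a13 and Hal. Cps1, Asl and Gls2 had no entry. The letters searched on both strands were TTGCNNAA for C/EBP, CAAAGTCCA for HNF4, TGACGTCA for the cyclic AMP response element, GGGCGG for the GC box, TATAAA for the TATA box and CCAAT for the box named after it. Of the 32851 windows in the table, 10.8% held the C/EBP letters, 0.475% the HNF4 letters, 1.79% the cyclic AMP response element, 35.7% a GC box, 13.6% a TATA box and 37.4% CCAAT. Among the 6 genes with windows, the GC box was in 3 (Ass1, Nags and Slc25a15), CCAAT in 2 (Slc25a13 and Hal), the C/EBP letters and the TATA box in 1 (Hal), and the HNF4 and cyclic AMP letters in 0. No motif was common to all 6, and a match describes letters, not a bound site.

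4 windows are printed as examples, 5′ to 3′ on the strand of the gene with matches in capitals. Otc fell and has no match, Ass1 and Nags did not pass the fold criterion, and Hal fell and holds 3 of the motifs. Slc25a13, which fell and holds CCAAT, and Slc25a15 are not printed. A link between motifs and the fall was not tested. The Otc window is chrX:10252055-10252354 on the plus strand (44.3% G and C), that of Ass1 chr2:31470020-31470319, plus strand (74%), that of Nags chr11:102145263-102145562, plus strand (57.7%), and that of Hal chr10:93488518-93488817, plus strand (47.7%). In Hal the capitals mark the C/EBP letters at -150 from the start, CCAAT at -64 and the TATA box, read on the minus strand, at -28. In Ass1 a GC box lies at -63 from the RefSeq start. That start is inside the locus of Ass1 in the mRNA table, which begins at 31470207, so this box is not upstream of the locus. In Nags there are GC boxes at -132 and, on the minus strand, at -41.
Otc: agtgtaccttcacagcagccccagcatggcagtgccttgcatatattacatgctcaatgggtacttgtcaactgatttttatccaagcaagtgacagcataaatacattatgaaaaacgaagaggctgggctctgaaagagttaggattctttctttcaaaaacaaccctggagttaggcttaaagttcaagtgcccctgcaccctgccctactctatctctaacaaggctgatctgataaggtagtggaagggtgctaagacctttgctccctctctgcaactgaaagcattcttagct
Ass1: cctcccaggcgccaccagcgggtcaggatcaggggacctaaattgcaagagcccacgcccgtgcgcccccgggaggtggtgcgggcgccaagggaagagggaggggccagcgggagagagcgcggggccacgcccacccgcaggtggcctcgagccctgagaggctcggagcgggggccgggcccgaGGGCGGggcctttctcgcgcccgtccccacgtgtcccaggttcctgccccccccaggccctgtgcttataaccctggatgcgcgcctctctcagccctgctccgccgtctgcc
Nags: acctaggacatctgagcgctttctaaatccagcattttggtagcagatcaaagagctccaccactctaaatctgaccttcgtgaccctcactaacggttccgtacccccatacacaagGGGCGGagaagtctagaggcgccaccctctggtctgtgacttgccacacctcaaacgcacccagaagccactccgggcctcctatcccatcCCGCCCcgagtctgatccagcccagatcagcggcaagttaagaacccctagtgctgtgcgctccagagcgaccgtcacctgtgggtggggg
Hal: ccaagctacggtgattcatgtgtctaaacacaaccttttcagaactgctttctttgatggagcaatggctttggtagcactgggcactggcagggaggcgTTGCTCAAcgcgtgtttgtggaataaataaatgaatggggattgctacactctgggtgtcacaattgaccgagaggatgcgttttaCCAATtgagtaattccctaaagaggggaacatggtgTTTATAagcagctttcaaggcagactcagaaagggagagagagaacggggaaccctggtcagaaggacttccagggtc

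The mitochondrial entry to the cycle begins with Nags (ENSMUSG00000048217, chr11:102145513-102149477, plus strand), which makes N-acetylglutamate, the activator that carbamoyl phosphate synthetase requires. Its scaled FPKM was 31.3, 30.3 and 32.8 in the control mice, 19.0, 17.2 and 19.7 in the TAA mice and 28.3, 28.0 and 25.8 in the recovery mice. With this scaling the TAA mice were lowest with no overlap, and all 3 recovery mice lay below all 3 controls. The log2 fold change of TAA against control was -0.75 (adjusted p = 0.000289), short of 2-fold. In the FPKM as deposited it was -0.12 (adjusted p = 0.295), and TAA and control mice overlapped. Of the exonic bases of Nags, 443 (15.6%) are shared with Gm11586, an antisense gene of the GENCODE M21 annotation that was looked up after the values were seen. The library kit does not mark strand, so reads of the pair cannot be told apart there, and Gm11586 is not in the table.

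Cps1 (ENSMUSG00000025991, chr1:67123026-67231259, plus strand) encodes carbamoyl phosphate synthetase, which fixes ammonia and controls the rate of the cycle. It measured 1362, 1322 and 1347 in the control mice, 744, 851 and 612 in the TAA mice, and 1207, 1505 and 1298 in the recovery mice. With this scaling the TAA mice stood apart and control and recovery mice overlapped. The TAA mean was 54.8% of control, a log2 fold change of -0.88 (SE 0.15, adjusted p = 0.00169), which was -0.24 as deposited (adjusted p = 0.122) and 0.46 with quantile normalization. As deposited, Cps1 read 1125, 1131 and 1183 in the control mice and 959, 1124 and 843 in the TAA mice.

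Otc (ENSMUSG00000031173, chrX:10252305-10321024, plus strand) encodes ornithine transcarbamylase, which makes citrulline from carbamoyl phosphate and ornithine. Its values were 189, 149 and 147 in the control mice, 53.0, 46.6 and 40.3 in the TAA mice, and 153, 144 and 134 in the recovery mice. The TAA mice were far below both other groups, which overlapped. Otc fell 3.46-fold with TAA (log2 fold change -1.79, SE 0.14, adjusted p = 4.89e-05), and it fell in the FPKM as deposited (-1.15) and with quantile normalization (-1.14). Of these mitochondrial enzymes it was the one that fell by the test under each of the 3 scalings.

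In the cytosol, Ass1 (ENSMUSG00000076441, chr2:31470207-31520672, plus strand) encodes argininosuccinate synthetase, which joins citrulline and aspartate. It read 1399, 1281 and 1279 in the control mice, 813, 871 and 710 in the TAA mice, and 1302, 1587 and 1293 in the recovery mice. TAA mice were lowest with this scaling, at 60.5% of the control mean, while as deposited the values overlapped, at 1156, 1096 and 1123 in controls and 1047, 1150 and 977 in the TAA mice. The log2 fold change of Ass1 was -0.73 (adjusted p = 0.00217), -0.09 as deposited (adjusted p = 0.459) and 0.63 with quantile normalization.

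Asl (ENSMUSG00000025533, chr5:130011258-130060781, minus strand) encodes argininosuccinate lyase, which splits the product of Ass1 into arginine and fumarate. It had the largest fall of the 9 genes. Scaled FPKM was 521, 605 and 548 in the control mice, 109.9, 74.9 and 95.8 in the TAA mice, and 469.9, 620.4 and 494 in the recovery mice. The TAA mice were at 16.8% of the control mean, far from either other group, and control and recovery mice overlapped. Asl fell 6.02-fold (log2 fold change -2.59, SE 0.15, adjusted p = 1.45e-05), with -1.95 as deposited and -1.68 with quantile normalization. The table gives Asl a wider span than GENCODE M21, where it ends at 130029247; the loci of the other 8 genes are identical. The wider span covers Crcp, a neighbour looked up after the values were seen, whose scaled FPKM was 3.51 to 15.0 over the 9 libraries and whose log2 fold change with TAA was -0.87.

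The carriers connect the mitochondrial and cytosolic steps. Slc25a15 (ENSMUSG00000031482, chr8:22375551-22398597, minus strand), which exchanges ornithine and citrulline across the inner membrane, measured 143, 151 and 149 in the control mice, 84.9, 93.7 and 75.9 in the TAA mice, and 104, 135 and 118 in the recovery mice. The 3 groups formed separate ranges with this scaling, TAA lowest and recovery between. As deposited the TAA mice overlapped both other groups, and the recovery mean of 107 was below the TAA mean of 113. Its log2 fold change with TAA was -0.80 (adjusted p = 0.000402), -0.17 as deposited and -0.03 with quantile normalization. Slc25a13 (ENSMUSG00000015112, chr6:6041218-6217173, minus strand) encodes citrin, the carrier that brings aspartate out of mitochondria in exchange for glutamate. It measured 176, 153 and 154.6 in the control mice, 56.4, 53.6 and 47.1 in the TAA mice, and 109, 110.2 and 105 in the recovery mice. The ranges were again separate with this scaling, and the recovery mice lay close to each other between the other groups. Slc25a13 fell 3.08-fold with TAA (log2 fold change -1.62, adjusted p = 2.11e-05), and its values of -0.98 as deposited and -0.95 with quantile normalization were just under 2-fold.

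Ammonia enters the pathway partly through Gls2 and Hal. Gls2 (ENSMUSG00000044005, chr10:128194457-128210004, plus strand), the liver glutaminase that frees ammonia from glutamine in mitochondria, read 127.9, 110.3 and 108 in the control mice, 45.6, 47.9 and 40.7 in the TAA mice, and 112, 106 and 92.3 in the recovery mice. The TAA mice were lowest, and control and recovery mice overlapped. Gls2 fell 2.58-fold (log2 fold change -1.37, adjusted p = 4.4e-05), with -0.73 as deposited and -0.75 with quantile normalization. Gls2 shares 97 exonic bases (2.79%) with Spryd4 on the opposite strand, looked up after the values were seen, which had a scaled FPKM of 9.28 to 15.1. Hal (ENSMUSG00000020017, chr10:93488768-93519304, plus strand), histidine ammonia-lyase, removes ammonia from histidine. It read 91.2, 96.3 and 91.1 in the control mice, 20.3, 27.1 and 20.0 in the TAA mice, and 139, 142 and 93.0 in the recovery mice. The TAA mice were lowest, and 2 of the recovery mice lay above every control while the third lay among them. Hal fell 4.16-fold with TAA (log2 fold change -2.06, SE 0.13, adjusted p = 1.94e-05), with -1.42 as deposited and -1.59 with quantile normalization.

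**Figure D2:**
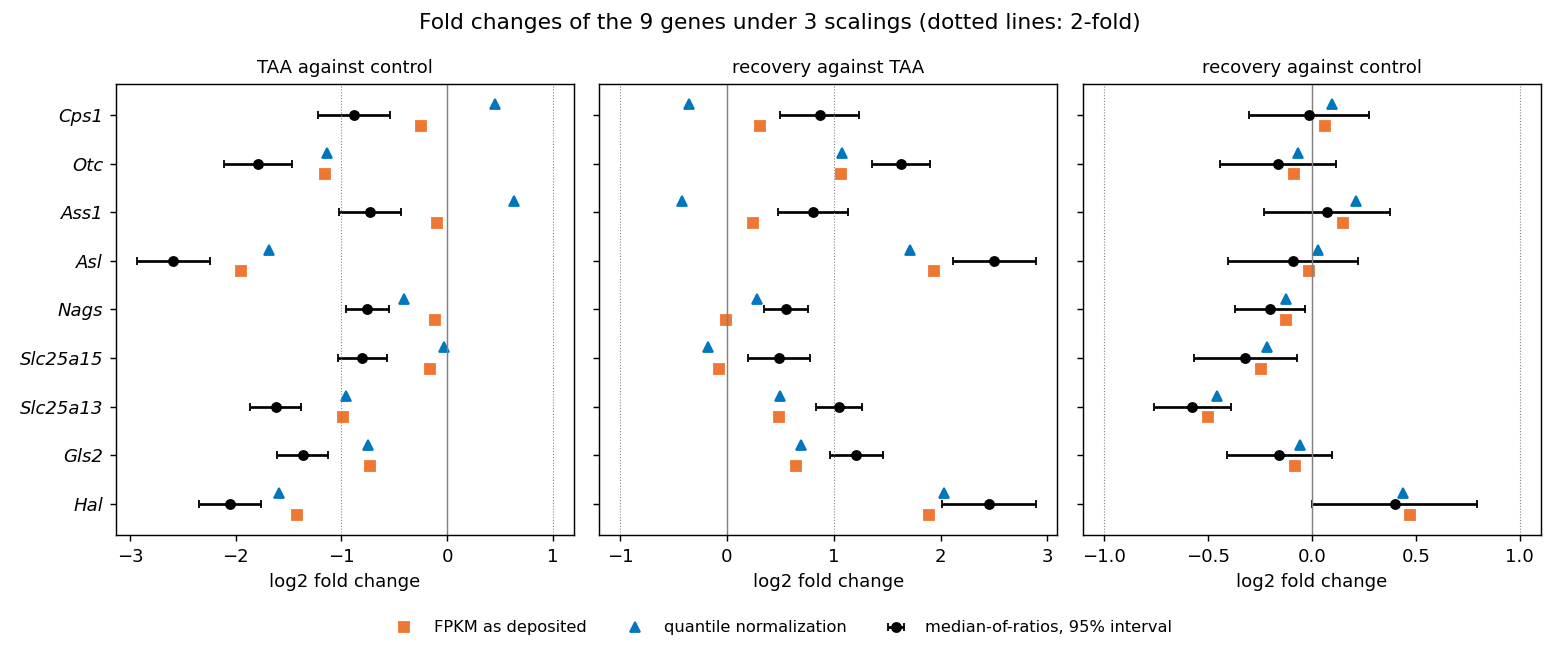
Log2 fold changes of the 9 genes in the 3 comparisons, with the 95% interval for the median-of-ratios scaling and the values as deposited and after quantile normalization as further symbols. In TAA against control Asl, Hal and Otc stay beyond 2-fold under each scaling, while Cps1 and Ass1 move from -0.88 and -0.73 to 0.46 and 0.63 with quantile normalization.

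Ratios between genes of the same library do not change when that library is multiplied by a factor, and they compare the steps with each other. For 8 pairs compared in 3 ways, the exact two-sided permutation test over mice cannot give a p below 0.1 with 3 against 3, and the smallest adjusted value over the 24 tests was 0.185. Asl was 37.3% to 47.2% of Ass1 in controls, 8.61% to 13.5% in the TAA mice and 36.1% to 39.1% in recovery, so that the lyase stood far lower beside the synthetase that supplies it (exact permutation p = 0.1, n = 3 per group, control and TAA ranges apart). Otc was 10.9% to 13.9% of Cps1 in controls, 5.47% to 7.12% in the TAA mice and 9.59% to 12.7% in recovery. Ass1 beside Cps1 was 94.9% to 103%, 102% to 116% and 99.6% to 108% in the same order, ranges that overlapped. Nags beside Cps1 overlapped between groups as well, at 2.29% to 2.43%, 2.02% to 3.21% and 1.86% to 2.34%.

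Among the carriers, Slc25a13 was 101% to 123% of Slc25a15 in controls, 57.2% to 66.5% in the TAA mice and 81.6% to 104% in recovery. Slc25a15 was 10.5% to 11.5% of Cps1 in controls and 11.01% to 12.4% in the TAA mice, which overlap. In recovery it was 8.62% to 9.10%, below both other groups.

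Slc25a12, the aspartate-glutamate carrier of muscle and brain, was 2.21% to 2.60% of Slc25a13, the form of the liver, in controls. It was 6.51% to 8.03% in the TAA mice and 3.61% to 4.03% in recovery. The ranges of the 3 groups did not overlap, and Slc25a13 was the more abundant carrier in all 9 libraries.

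**Figure D3:**
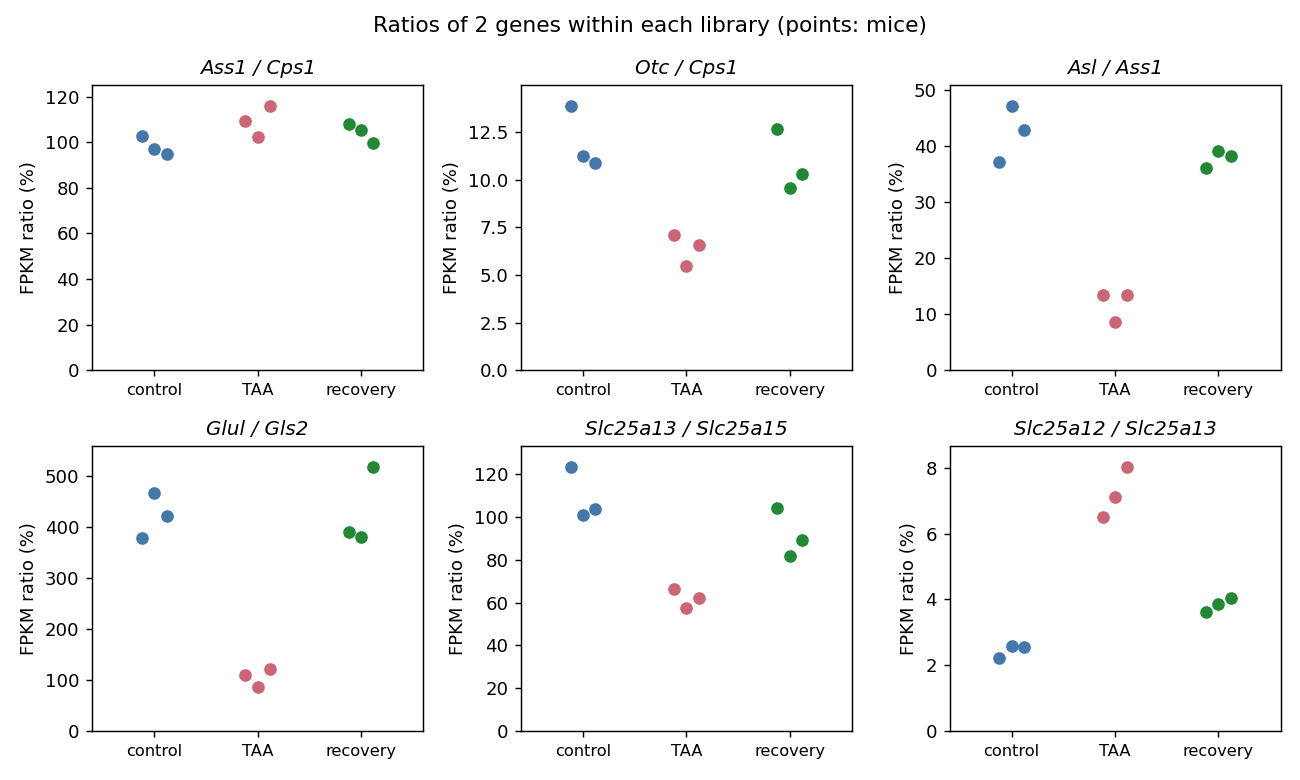
FPKM of a gene as a percentage of another in the same library, each point a mouse, for 6 pairs in the control, TAA and recovery groups. Asl beside Ass1 is 37.3% to 47.2% in controls and 8.61% to 13.5% in the TAA mice, while Ass1 beside Cps1 overlaps between the groups.

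After 8 weeks without injections, all 9 genes had higher scaled FPKM than in the TAA mice, every recovery library above every TAA library. That arrangement was found in 29.4% of all genes tested. As deposited, recovery and TAA libraries overlapped for Cps1, Nags and Slc25a15. 5 of 9 rose by the test, against 7.12% of all genes that rose and 14.3% that fell: Asl (log2 fold change 2.50), Hal (2.45), Otc (1.63), Gls2 (1.21) and Slc25a13 (1.05). All 9 were higher at an adjusted p under 0.05, against 24.5% of all genes, and the median log2 fold change was 1.05, with -0.01 over all genes. Cps1 at 0.87 and Ass1 at 0.80 were under 2-fold and turned to -0.36 and -0.42 with quantile normalization. Nags at 0.55 became -0.01 as deposited, and Slc25a15 at 0.49 became -0.08 as deposited and -0.18 with quantile normalization. This comparison and the previous one share the TAA mice, so their values for a gene are not independent.

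The scaling set recovery against TAA 0.56 higher than in the FPKM as deposited. There 3 of the 9 rose by the test and 5 were higher at an adjusted p under 0.05, with a median of 0.49. With quantile normalization 3 rose, with a median of 0.50. At an adjusted p under 0.05, 6 were then higher and 1, Ass1, was lower (adjusted p = 0.0220). Tested against a fold of 2, 3 rose, without Gls2 and Slc25a13. Of all genes called, 33.2% were higher in recovery with the factors (1003 higher, 2014 lower), 9.89% without them (409 and 3728) and 44.9% with quantile normalization (1132 and 1390). The rise of Slc25a13 was at the threshold: without TAA 3 its log2 fold change was 0.97 and it was not called, which left 4 of the 9.

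Against the controls, which were 8 weeks younger, 0 of the 9 genes passed the test in recovery by limma, where 0.993% of all genes did, and testing against a fold of 2 gave 0 as well. At an unadjusted p under 0.05 there were 4, Slc25a13, Slc25a15, Nags and Hal, against 23.0% of all genes. The median log2 fold change was -0.16, beside 0.01 over all genes, and the scaling moved this comparison by 0.08. The 95% intervals show how closely each gene was bounded: Cps1 -0.01 (-0.30 to 0.27, with the estimate at 0.06 as deposited and 0.10 with quantile normalization) and Ass1 0.07 (-0.23 to 0.38). For Otc the value was -0.16 (-0.44 to 0.12), for Gls2 -0.16 (-0.41 to 0.10), and for Asl -0.09 (-0.40 to 0.22, with 0.03 under quantile normalization). The intervals of all 9 genes stayed within 2-fold. Single mice turned the sign of values near 0: Ass1 was -0.02 without recovery 2, and Cps1 was 0.06 without recovery 1 and 0.01 without recovery 3. Of all genes called, 82 were higher and 58 lower in recovery, 58.6% higher, with 69.3% as deposited (106 and 47) and 53.5% with quantile normalization (61 and 53).

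The carriers and Nags had the lowest values in recovery relative to controls. Slc25a13 stood at 67.0% of the control mean, a log2 fold change of -0.57 (95% interval -0.76 to -0.39), with all 3 recovery mice below all 3 controls. It was the 1 member of the 9 lower at an adjusted p under 0.05 (0.0233), as were 1.38% of all genes, and was under 2-fold. That adjusted p was 0.0395 without control 1 and 0.0571 to 0.0999 without any other mouse, 0.0561 without the mean-variance trend and 0.0681 with same-numbered mice as a block, a range of 0.0104 to 0.0999 over the alternatives with a test against no change. Slc25a15 was -0.32 (-0.57 to -0.07, adjusted p = 0.142), and Nags was -0.20 (-0.37 to -0.03, adjusted p = 0.155). Hal was the gene with the highest value, 0.40 (0.00 to 0.80, adjusted p = 0.217).

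Beyond the 9 genes, 43 further genes of glutamine, ammonia, arginine and related amino acid metabolism were followed, of which 41 passed the filter on low values. With TAA, 3 rose and 19 fell, with a median log2 fold change of -0.98, where 17.0% of all genes rose and 8.02% fell. As deposited 7 rose and 7 fell (median -0.34), where 4382 of the 14094 genes tested rose and 421 fell. With quantile normalization 4 rose and 11 fell (median -0.27), where 1591 and 1266 of all genes did. In recovery against TAA 14 rose and 3 fell (median 0.65), where 7.12% of all genes rose and 14.3% fell. As deposited 8 and 7 did (median 0.09), beside 409 and 3728 of all genes. With quantile normalization 10 and 4 did (median 0.20), beside 1132 and 1390. In recovery against control 0 rose and 2 fell, with a median of -0.09, where 0.993% of all genes were called. The same shares over all genes apply to the lists below.

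Of 10 tested genes for glutamine and glutamate handling, 1 rose and 7 fell with TAA, while 2 rose and 4 fell as deposited and likewise with quantile normalization, so that 3 of the 7 falls were lost under both. Glul, the glutamine synthetase of pericentral hepatocytes, measured 484, 514 and 456 in the control mice, 50.3, 40.9 and 49.2 in the TAA mice, and 439, 405 and 478 in the recovery mice. The TAA mice lay about an order of magnitude below the others, and Glul fell with a log2 fold change of -3.37 (adjusted p = 1.99e-06). Beside Gls2, the glutaminase of the opposite zone, Glul stood at a ratio of 3.79 to 4.66 in controls, 0.854 to 1.21 in the TAA mice and 3.80 to 5.19 in recovery. The glutamate transporter Slc1a2 fell from a mean of 86.0 to 0.132, a log2 fold change of -8.62 whose size rests partly on the 0.1 added to each FPKM. Rhbg, an ammonium transporter, fell (-2.13), while Aqp8, a water channel that also passes ammonia, rose 4.61-fold (from 8.42 to 40.1). Glud1, glutamate dehydrogenase, which releases or fixes ammonia, did not pass the fold criterion at 0.40 (adjusted p = 0.0178), but rose as deposited (1.03) and with quantile normalization (1.72).

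Of 2 carriers related to the members, 1 fell. Slc25a2, another ornithine carrier, fell from 0.387 to 0.117 (-1.17), with -0.76 as deposited and -1.97 with quantile normalization, at levels where the added 0.1 makes the fold change smaller. Slc25a12 was at 3.94 and 3.76 (-0.07, adjusted p = 0.599) and turned to 0.56 as deposited.

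Of 3 genes for enzymes that supply or modify the mitochondrial steps, 2 fell with TAA. Car5a, the mitochondrial carbonic anhydrase that provides bicarbonate to carbamoyl phosphate synthetase, had means of 22.5 in controls, 7.98 in the TAA mice and 13.2 in recovery, a log2 fold change of -1.45 with TAA (adjusted p = 0.000556). Sirt3, a mitochondrial deacetylase, fell (-1.25). Sirt5, a deacylase that acts on carbamoyl phosphate synthetase, was at -0.38 (adjusted p = 0.0218) and at 0.24 as deposited. As deposited, Car5a at -0.82 and Sirt3 at -0.62 were under 2-fold.

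Of 6 aminotransferases, which move nitrogen between amino acids, 3 fell. Oat, ornithine aminotransferase, read 1129, 1178 and 808 in the control mice, 10.04, 18.4 and 15.2 in the TAA mice, and 308, 378 and 464 in the recovery mice. The 3 groups did not overlap, and the recovery mice stood between the others. Oat fell with TAA by a log2 fold change of -6.17 (adjusted p = 3.58e-06). Got1, the cytosolic aspartate aminotransferase, fell (-2.46), as did Tat, tyrosine aminotransferase (-1.65, with -0.45 under quantile normalization). Gpt2, an alanine aminotransferase, stayed under 2-fold at -0.89, with -0.26 as deposited and -0.0001 with quantile normalization. Of 3 genes that process the fumarate made by argininosuccinate lyase, Fh1, fumarate hydratase, fell (-1.18), but was under 2-fold as deposited (-0.55) and with quantile normalization (-0.63). Of the malate dehydrogenases, Mdh1 was at -0.997, just under the threshold, with -0.36 as deposited and -0.20 with quantile normalization. Mdh2 was at 0.30 (adjusted p = 0.0313), which was 0.94 as deposited and rose with quantile normalization (1.05).

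Of 9 other genes of amino acid breakdown with release of ammonia, 4 fell with TAA. After Hal, histidine breakdown runs through Uroc1, Amdhd1 and Ftcd. Uroc1, urocanate hydratase, had means of 140.5 in controls, 71.0 in the TAA mice and 154 in recovery. Its log2 fold change with TAA was -0.98, under 2-fold, with -0.34 as deposited and -0.27 with quantile normalization. Amdhd1, imidazolonepropionase, fell (-1.48), and so did Ftcd, formiminotransferase (-1.29). Amt of the glycine cleavage system (-1.28) and Sdsl, related to serine dehydratase (-1.20), fell as well. As deposited these 4 were under 2-fold, from -0.84 for Amdhd1 to -0.58 for Sdsl, and 1 of the 9 rose. With quantile normalization 3 fell, without Ftcd. In recovery against TAA 6 of the 9 rose, while as deposited 2 rose and 1 fell, and with quantile normalization 4 rose. Amdhd1 (1.84) rose under each scaling, whereas Uroc1 (1.11) was under 2-fold as deposited (0.55) and with quantile normalization (0.49).

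Of 9 tested genes that use arginine or ornithine, 2 rose and 2 fell with TAA, Oat being counted here too, and the median was 0.23. As deposited 4 rose and 1 fell (median 0.87), and with quantile normalization 1 rose and 1 fell (median 0.65). Aldh18a1, which makes the proline precursor from glutamate, rose from a mean of 0.451 to 2.67 (log2 fold change 2.35, adjusted p = 6.74e-05). Pycr1, the last enzyme of proline synthesis, rose from 0.0467 to 0.371 (1.69, adjusted p = 0.00288), levels at which the added 0.1 weighs on the fold change, and with quantile normalization its adjusted p was 0.0556.

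**Figure D4:**
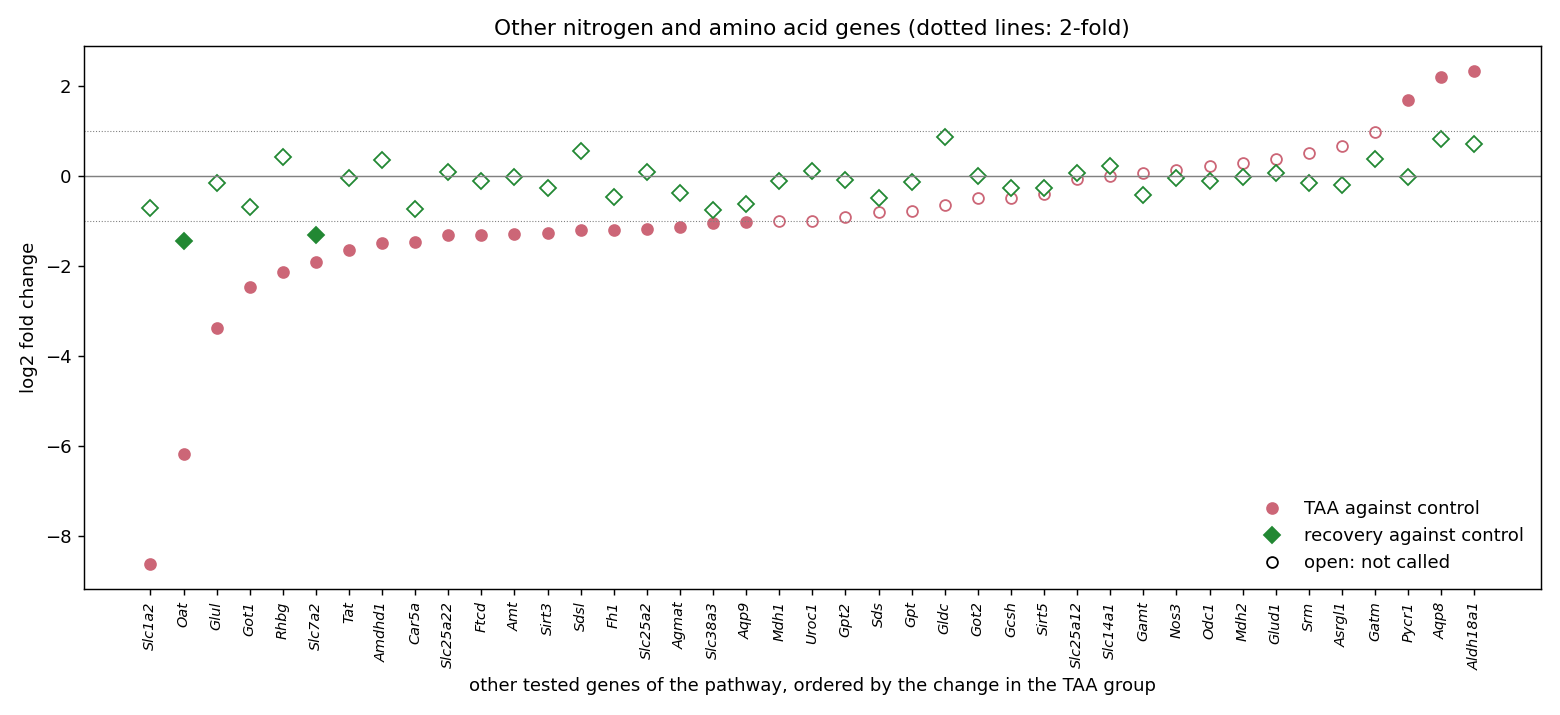
Log2 fold changes of the 41 further genes tested, ordered by their change in TAA against control, as circles for that comparison and diamonds for recovery against control; filled symbols passed the test and dotted lines mark 2-fold. At the low end stand Slc1a2 (-8.62) and Oat (-6.17) and at the high end Aldh18a1 (2.35). Slc25a12 and Sirt5, at -0.07 and -0.38, are among the genes that turn positive as deposited, at 0.56 and 0.24.

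The 2 further genes that fell in recovery against control were Oat and Slc7a2, the latter named after its values were seen. Slc7a2, a transporter of arginine, ornithine and lysine, read 282, 301 and 322 in the control mice, 76.1, 98.8 and 69.6 in the TAA mice, and 118, 126 and 120.4 in the recovery mice. The recovery mice lay far below the controls; that they lay above the TAA mice (0.59) held only with this scaling, with 0.03 as deposited and -0.05 with quantile normalization. Its log2 fold change in recovery against control was -1.31 (adjusted p = 0.00661), and it was called without any 1 of the 6 mice. Oat stood at -1.44 (adjusted p = 0.0270), which was 0.0571 to 0.112 without 1 mouse, so that leaving out any of control 1, control 2, control 3, recovery 1, recovery 2 and recovery 3 ended the call. Glul was at 90.9% of its control mean, a log2 fold change of -0.14 (adjusted p = 0.434).

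Of 10 regulators known to act on these genes, 6 fell with TAA and 0 rose (median -1.17), where 8.02% of all genes fell and 17.0% rose. As deposited 1 fell (median -0.55), and with quantile normalization 3 fell (median -0.64). Of the 14094 genes tested, 421 and 1266 fell under these 2 scalings. The lowest were Gcgr, the glucagon receptor (-1.75), Creb3l3, a transcription factor of the fasting liver (-1.58), Klf15, a regulator of amino acid breakdown (-1.57), and Cebpa, a factor of hepatocyte identity (-1.48). Among these, Gcgr alone fell as deposited (-1.11), and Gcgr (-1.31) and Klf15 (-1.05) fell with quantile normalization. In recovery against TAA 4 of the 10 rose, with a median of 0.88, where 7.12% of all genes rose. There 0 rose as deposited (median 0.33) and 1 with quantile normalization (median 0.50). In recovery against control the median was -0.26.

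Markers of the liver zones moved in several ways. Of 10 periportal markers other than the members, 3 rose and 3 fell, with a median of -0.82 that was 0.12 with quantile normalization. Pck1, which starts glucose formation, fell from a mean of 2158 to 372 (-2.53, with -1.89 as deposited and -1.04 with quantile normalization). Pigr, which carries antibodies into bile, fell as well (-3.02, with -2.38 as deposited and -2.30 with quantile normalization). Cdh1, E-cadherin, rose (2.64), and Aldh1b1, a mitochondrial aldehyde dehydrogenase, rose (2.46); bile duct cells also express both Cdh1 and Pigr. Of 11 pericentral markers, 6 fell and 0 rose (median -1.40), with Slc1a2, Oat, Cyp2e1, which oxidises thioacetamide, and Glul the lowest. Cyp2e1 was at -3.65, with -2.23 under quantile normalization. As deposited 5 of the 11 fell and 1 rose. Slc1a2, Oat, Glul and Rhbg of this list are also among the further pathway genes above. Both zones therefore held genes that fell, and the members' own median of -1.37 lay near that of the pericentral list. In recovery against control 1 periportal marker, Cdh1, rose (1.07) and 1 pericentral marker, Oat, fell.

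The cell type markers moved with the members as follows, and their part in the members' changes was not tested. Of 8 general hepatocyte markers 3 fell with TAA (median -0.67): Apoa1 (-1.55), Apoh (-1.52) and Apob (-1.26), of which Apoh and Apob turned to 0.01 and 0.12 with quantile normalization. Ambp, at -0.85, turned to 0.64. As deposited Apoa1 at -0.91, Apoh at -0.88 and Apob at -0.62 were under 2-fold and the median of the list was -0.03, and with quantile normalization 3 rose and the median was 0.38. The summed scaled FPKM of the list, led by Alb, was 40817 to 44766 in controls, 25461 to 32820 in the TAA mice and 50705 to 52648 in recovery. The sum of Cps1, Otc, Ass1, Asl and Nags was 3354 to 3502 in controls, 1478 to 1861 in the TAA mice and 3160.3 to 3885 in recovery. In the FPKM as deposited the sum of these 5 enzymes was still lowest in the TAA mice, at 2035 to 2457 against 2895 to 2946 in controls. The sum of the hepatocyte list overlapped, at 35051 to 42260 against 35278 to 38288. Each sum mostly follows its most abundant genes. As deposited the TAA mean of Alb was 112% of control, against 53.1% for Apoa1, 54.7% for Apoh and 65.6% for Apob. The remaining hepatocyte markers were at 86.5% to 141%. The enzymes were at 26.0% (Asl), 44.9% (Otc), 85.1% (Cps1), 92.2% (Nags) and 94.0% (Ass1). The sums therefore do not compare the 2 lists gene by gene.

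Markers of other liver cells differed by type. All 6 bile duct markers rose (median 3.51): Spp1 (4.31), Epcam (4.21), Krt19 (3.52) and Cldn7 (3.50) were the highest, and the list sum, led by Spp1, was 15.8 to 21.4 in controls, 299 to 448 in the TAA mice and 28.9 to 39.3 in recovery. Of 8 stellate cell markers 7 rose (median 2.18), among them Col1a1 (5.91), Col3a1 (4.95), Lum (3.49) and Pdgfrb (2.21), with sums of 58.5 to 102, 268 to 367 and 89.4 to 125 in the same order. Of 8 macrophage markers 4 rose, Marco (2.04), Cd14 (1.73), Lyz2 (1.42) and Cd68 (1.21), with sums of 101 to 161, 210 to 272 and 176 to 251. Of 7 lymphoid markers 1 rose (4 as deposited), with a median of 0.57 that was -0.34 with quantile normalization, and both tested granulocyte markers rose. The 5 endothelial markers had a median of 0.08 (0.71 as deposited) and did not pass the test, and the macrophage median of 0.88 was 1.51 as deposited, where 6 rose. In recovery against TAA 5 bile duct and 6 stellate cell markers fell. Of the 8 hepatocyte markers 4 rose in that comparison (median 0.90), while 1 rose as deposited and 2 fell with quantile normalization (median -0.28). In recovery against control 1 bile duct marker rose (median 0.81). There 0 stellate cell, macrophage or hepatocyte markers passed the test, with medians of 0.40, 0.56 and 0.15.

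Markers of tissues outside the liver were low. The 5 skeletal muscle markers summed to 32.9 in TAA 3, led by Acta1, and to at most 0.426 in every other library. Acta1 was at 0 in all control and recovery mice. TAA 3 was also the library with the lowest TAA value for 7 of the 9 members, and the part of the muscle RNA in that was not tested; without TAA 3, 5 of the 9 members were still called in TAA against control. Adipose markers, led by Cfd, summed to 8.48 in control 1 and to at most 1.77 elsewhere, and the 1 tested adipose gene, Cfd, fell, listed at 0 in the TAA mice. Pancreas markers, led by Cela1, summed to 5.34 to 6.65, and the 1 tested did not pass. Kidney markers summed to at most 0.0485 and intestine markers to at most 0.0935, and none of these was tested.

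As a description over all 9 libraries, with no test, the genes outside the members whose log2 profile was most like the mean of Cps1, Otc, Ass1, Asl and Nags were Hpd (Pearson r 0.998), Atg3 (0.998), Vnn3 (0.997), Abat (0.997) and Aadat (0.997). Such likeness was common: 993 of 14085 genes had an r of at least 0.95, and the TAA mice form a cluster apart from the rest. The 9 genes lie on 8 chromosomes, with Gls2 and Hal on chromosome 10.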

How the data were processed

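The authors sequenced liver mRNA with a kit that does not mark strand (NEBNext Ultra, 150-base paired-end reads), mapped it to mm10 with HISAT2 2.2.1, counted reads on genes with featureCounts 1.5.0-p3 and deposited FPKM, with no further scaling between libraries. Members were matched by symbol. Each library was scaled by a median-of-ratios factor taken over the 14005 genes above 0 everywhere. R 4.3.3 with limma 3.58.1 (lmFit, then eBayes with a mean-variance trend) fitted the 6 libraries of a comparison at a time, on log2 values after adding 0.1. Genes whose FPKM averaged under 0.1 were not tested, which left 14094. Benjamini-Hochberg adjustment covered every gene tested, and a call needed an adjusted p under 0.05 and a fold change of at least 2. Ratios within libraries were compared by exact two-sided permutation tests. Python 3.11.15, numpy 2.4.6 and matplotlib 3.10.9 were used for annotation, promoters and plots. The steps were tested on simulated data with few changed genes, as many higher as lower, and library factors unrelated to group. That simulation could not test the scaling where the factors differ between groups, as they did here.

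Depth was estimated from the spacing of low FPKM times transcript length, as the depth at which these values were most nearly whole. At that depth 52.9% to 61.5% of low values per library were whole fragment numbers (within 0.08). Chance gives 16% at a depth fixed beforehand, which is not the chance level for a depth chosen as the best. Counts were not recovered, so limma used the spread between mice, moderated toward a trend over all genes tested, and not counting error. The genes named are the 9 members, chosen pathway genes (Glul, Glud1, Slc25a2, Slc25a12, Oat, Car5a, Sirt5, Uroc1, Amdhd1, Ftcd), up to 4 genes per list with the largest change in TAA against control, the most abundant marker of a list, the 5 genes with the most similar profile, and, named after values were seen, Slc7a2 and the neighbours Crcp, Spryd4 and Gm11586. A further member and 3 listed genes are not reported here and are left out of every count of members and lists. Members and lists were chosen with earlier results of these data known. Alternatives were tried for the pseudocount, the filter, the scaling, the libraries in the fit, the trend, a test against a fold of 2, a replicate block and leaving out each mouse. Small RNA libraries were left out, since they do not measure these genes.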

Additional observations from a re-analysis of the deposited data

How the results depend on the processing

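In TAA against control 5 members were called, 3 as deposited and 3 with quantile normalization, and 5 to 5 without 1 mouse; with quantile normalization Cps1 was 0.46 and Ass1 0.63. In recovery against TAA 5 were called, 3 as deposited, 3 with quantile normalization, 3 tested against a fold of 2 and 4 to 5 without 1 mouse; Nags was -0.0059 and Slc25a15 -0.0753 as deposited, and Cps1 -0.36, Ass1 -0.42 and Slc25a15 -0.18 with quantile normalization. In recovery against control 0 were called under every alternative, 0 to 0 without 1 mouse (limma, with 4 at an unadjusted p under 0.05); Cps1 was 0.0628 as deposited and 0.0998 with quantile normalization, Asl 0.0283 with quantile normalization, and without 1 mouse (signs turned without recovery 1, recovery 2 or recovery 3) Cps1 ranged from -0.102 to 0.0586 and Ass1 from -0.0226 to 0.126. Of the other pathway genes, 22 were called in TAA against control (14 as deposited, 10 tested against a fold of 2, 20 to 24 without 1 mouse), 17 in recovery against TAA (9 against a fold of 2, 17 to 18 without 1 mouse) and 2 in recovery against control (0 against a fold of 2, 1 with no filter, 1 with the replicate block, 1 to 1 without 1 mouse). Apart from that last count, treating same-numbered mice as a block changed none of these counts; their deviations from the group means had r of -0.07 to 0.12, and the mice were not paired. The pseudocount, trend and fit on all 9 libraries reversed no member. The cause was not tested, except that a test against a fold of 2 is stricter by construction and fewer mice give less precision. Depth could not be resolved into counts for each gene, so the spread between mice, moderated over all genes tested, sets the precision. Recovery cannot be told apart from the 8 weeks of age between recovery and control mice.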
